A study of Rattus norvegicus with 6 samples.

Results

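The pineal glands of 6 rats held 336 circular RNAs (circRNAs) that the authors' tables place between annotated genes and whose 2 ends lie 20000 bases or more apart. They were chosen by that rule alone from the union of the 6 libraries' tables: the class recorded as intergenic, and a span, counted from the first to the last base, of at least 20000. They made up 15.1% of all 2228 circRNAs and 50.8% of the 662 intergenic ones, and they held 16522 of 116358 back-splice reads (14.2%). A circRNA is a closed loop made when a downstream splice site is joined to an upstream one, a step called back-splicing, and it is recognised from reads that cross this junction. Most known circRNAs come from exons of protein-coding genes, and circRNAs are abundant in neural tissue. The intergenic class is taken as the tables record it, and some circRNAs in it have 1 end at an exonic circRNA of an annotated gene, as described below. A span is the genomic distance between the ends, not the length of the RNA, since introns between the ends are usually removed.

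The pineal gland secretes melatonin at night. It was taken from rats 8 weeks old, and 1 library of total RNA was made per rat. By title and time tag, the night rats (4:00) are C01 to C03 and the day rats (16:00) C04 to C06. The treatment protocol instead describes C01 to C03 as killed in bright light between 16:00 and 17:00, and C04 to C06 in the dark, under red light, between 04:00 and 05:00. Rat numbers therefore name the groups here (n = 3 each), differences are C01 to C03 minus C04 to C06, and none is assigned to day or night. The files name no strain, treatment or genotype that would separate the rats further. They hold no gene symbols, so pineal markers could not be checked. Back-splice reads per library ranged from 15506 to 22265, and a second circRNA caller, whose lists the authors also deposited, gave 2843 to 4803 candidates per library. The fewest candidates were in C04. Coordinates are given as the files have them, counted from 1.

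The long intergenic circRNAs were a few abundant species beside many rare ones. Exactly 168 of the 336 were listed in 1 library, 56 in 2, 32 in 3, 25 in 4, 16 in 5 and 39 in all 6. The 39 held 75.9% of the reads of the whole set, and the 10 with most reads held 58.1%. The median circRNA of the set had 7 reads over all libraries, and the median of those listed in 1 library had 4. Intergenic circRNAs under 20000 bases had a like pattern, with 166 of 326 in 1 library and 47 in all 6, and so did exonic circRNAs of 20000 bases or more, with 205 of 445 in 1 library and 53 in all 6.

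Spans ran from 20050 to 199893 bases with a median of 52236.5. The set was spread over 22 chromosomes and over both strands, 162 on the plus and 174 on the minus strand. Chromosome 1 carried 73 of them (21.7%), whereas it carried 267 of all 2228 circRNAs (12.0%). Many of the 73 overlap one another, among them 8 at chr1:195657722-195866944 and 6 each at chr1:4108220-4231234 and chr1:84530649-84679646. They are thus not 73 separate loci. The 3 longest were chr2:251176578-251376470 with 199893 bases, chr5:101738231-101935792 with 197562 and chr18:85534246-85731039 with 196794. The first of these had 45, 35, 41, 23, 14 and 28 reads from C01 to C06. The second had 6 reads in C06 alone, and the third had 3, 4 and 2 reads in C03, C04 and C06. The chromosome 2 circRNA thus combined the longest span with a listing in every library, whereas the other 2 rested on few reads. Just inside the limit lay chr1:281236389-281256438 (20050 bases, 120 reads), chrX:51103376-51123482 (20107 bases, 2 reads) and chr16:87501475-87521973 (20499 bases, 4 reads). Just outside it lay chr9:104545364-104565274 (19911 bases, 113 reads), chr6:126864143-126883987 (19845 bases, 74 reads) and chr4:1963930-1983538 (19609 bases, 22 reads). The 3 outside were listed in 6, 5 and 4 libraries, whereas 2 of the 3 inside were listed in 1.

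**Figure D1:**
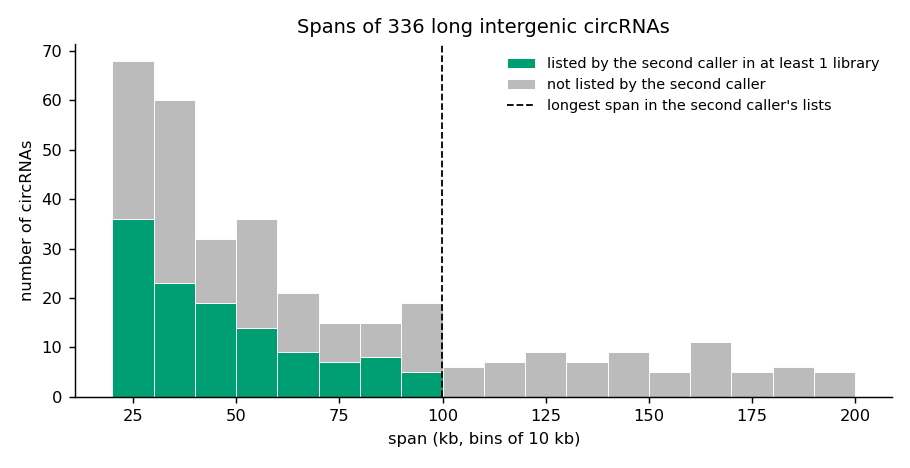
Number of long intergenic circRNAs (y axis) by span in bins of 10 kb (x axis), split by whether the second caller listed them in at least 1 library, with the longest span in that caller's lists, 99870 bases, as a dashed line. Green is spread over the bins left of the line and absent to its right, where 71 circRNAs lie.

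The most abundant circRNA of all 2228 belonged to this set. It was chr20:5347661-5414567, on the plus strand with a span of 66907 bases, and it had 903, 559, 584, 686, 782 and 299 reads from C01 to C06. These 3813 reads were 23.1% of those of the set. C06 was the lowest and C01 the highest, and the groups overlapped. As normalised CPM, back-splice counts scaled to a common library total over the 772 circRNAs tested below, C01 to C03 had 40625 ± 7614 (SD, n = 3) and C04 to C06 had 31916 ± 12448.

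Second in reads was chr2:197722898-197836197, with 229, 207, 201, 227, 234 and 185 reads, or 12815 ± 819 against 11826 ± 816 CPM (n = 3 each). Its counts were even across the rats, and the groups overlapped. The next was chr4:184195264-184224636 with 276, 218 and 204 reads against 156, 179 and 157 in the other group, which did not overlap. It was followed by chr6:144211592-144275272 with 183, 150, 123, 107, 141 and 114 reads, whose groups met at C03 and C05. As CPM they did not overlap, with 7457 in C03 and 7291 in C05. The circRNA chr14:113271542-113314869 had 118, 106, 98, 160, 159 and 127 reads and was lower in every rat of C01 to C03 than in every rat of C04 to C06. That difference did not pass the test described below (edgeR adjusted p = 0.22). The other 5 of the 10 with the highest mean CPM lay between 2143 and 4506 CPM in either group: chr6:126864143-126894194, chr7:32922004-32982696, chr6:125538240-125594377, chr6:125438435-125594377 and chr15:25537445-25581597. Of these, 2 on chromosome 6 share the end at 125594377.

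**Figure D2:**
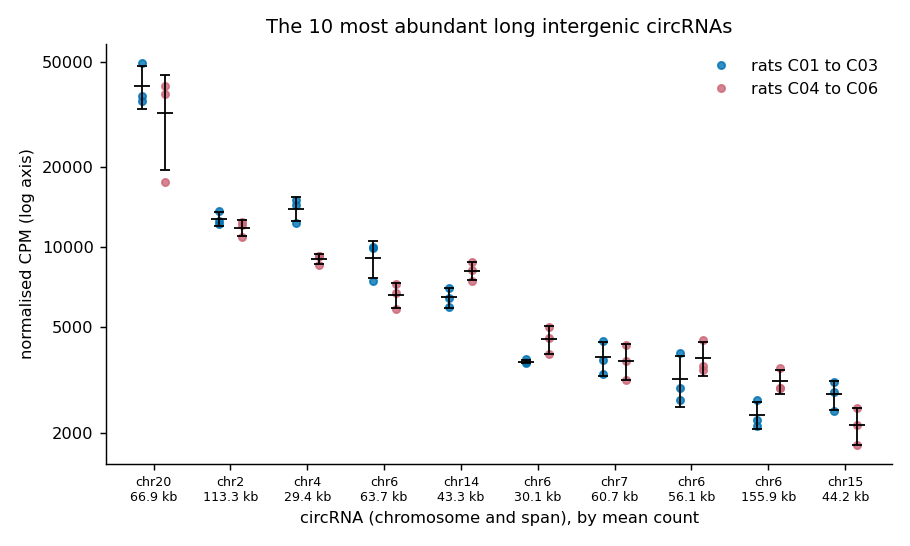
Normalised CPM on a log axis (y axis) of the 10 long intergenic circRNAs with the highest mean, labelled by chromosome and span (x axis). Points are rats and horizontal bars are group means (n = 3 each). Means run from 40625 CPM at the chromosome 20 circRNA down to 2143 CPM, and the groups stand apart at the chromosome 4 circRNA, with 13975 against 9027 CPM. They also do not overlap at chr14:113271542-113314869, chr6:144211592-144275272, chr6:126864143-126894194 and chr6:125438435-125594377. None of these passed the test described below (edgeR adjusted p = 0.22, 0.23, 0.63 and 0.46 in this order). How often groups do not overlap over all circRNAs was not counted.

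Few of the long intergenic circRNAs used an end of an exonic circRNA. On the same chromosome and strand, 18 of 336 (5.36%) had the start of an exonic circRNA as their own start or its end as their own end, and none shared both. The exonic circRNAs came from 13 annotated genes. The shared end was the left coordinate in 15 cases and the right one in 3. Read along the transcript, it was the 5′ end of the long circRNA in 7 cases and the 3′ end in 11. Such circRNAs were rare: 12 of the 18 were listed in 1 library, each had 2 to 87 reads, and together they held 298 reads, 1.80% of those of the set. Among the shorter intergenic circRNAs 3 of 326 (0.920%) shared an exonic end, and among the 230 intronic ones 55 did (23.9%).

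Counted per library, 4.58, 3.13, 4.17, 4.88, 7.33 and 4.35% of the listed long intergenic circRNAs shared an exonic end from C01 to C06. The same share of the shorter ones was 0, 0.840, 0.758, 0.671, 0 and 0%. The long ones were above the short ones in 6 of 6 libraries, by 4.36 percentage points (SD 1.68, n = 6; 4.74 ± 1.40 against 0.378 ± 0.418%; exact two-sided sign-flip permutation test, p = 0.031, the smallest 6 libraries allow, and 0.031 after adjustment over 4 such tests). When only exonic circRNAs listed in the same library counted as partners, the difference was 2.51 points (exact sign-flip permutation p = 0.063). With partners listed in all 6 libraries it was 0.251 points (exact sign-flip permutation p = 0.25), so the call was lost with partners limited in either way. A circRNA listed in several libraries counts in each, with the same ends. These tests thus measure the spread between libraries, not that between circRNAs.

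The one circRNA with an exonic end that was listed in all 6 libraries was chr13:109457218-109588736, on the minus strand. It had 21, 15, 7, 21, 13 and 10 reads, while its exonic partner chr13:109457218-109471561 of the gene ENSRNOG00000003767 was listed in C06 alone, with 8 reads. The intergenic form was thus the more widely listed of the pair. On the same chromosome, chr13:95167819-95348984 had 15, 14, 12, 14 and 19 reads in C01, C02, C03, C05 and C06 and was not listed in C04. Its partner chr13:95167819-95208329 of ENSRNOG00000021497 had 22, 22, 21 and 22 reads in C01, C03, C04 and C06. In the 3 libraries that list both, the exonic partner had more reads.

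No exonic end was shared by more than 2 of the long intergenic circRNAs, and 4 ends were shared by 2. At chrX:135406401, an end of ENSRNOG00000006797, chrX:135406401-135428629 had 6, 7, 2, 6 and 6 reads and chrX:135406401-135436054 had 6, 4, 7, 9 and 8, both listed in every rat but C02. The exonic circRNA at this end, chrX:135406401-135419614, had 12, 9, 6 and 8 reads in C01 to C04 and was not listed in C05 or C06. The main tables thus list the exonic form without the intergenic ones in C02, and the intergenic forms without it in C05 and C06. The other 3 ends rested on fewer reads. At chr18:1803205 the exonic circRNA chr18:1803205-1819028 had 9, 11, 14, 11, 13 and 2 reads, against 2 reads in C03 for chr18:1803205-1829292 and 5 in C05 for chr18:1803205-1832073. At chr10:39727635 and chr17:89630810 no long intergenic circRNA had more than 2 reads in any library.

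Sharing an end with one another was common. An end of another long intergenic circRNA was shared by 151 of 336 (44.9%), an end of a shorter intergenic one by 82 (24.4%) and an end of an intronic one by 2. In all, 196 (58.3%) shared an end with some other circRNA and 140 shared none. The same held for 121 of 326 shorter intergenic circRNAs (37.1%) and for 265 of 445 exonic circRNAs of 20000 bases or more (59.6%). Few of the long intergenic circRNAs lay across exonic ones: 26 overlapped an exonic circRNA of the same strand, and 22 of them contained one.

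Merged where they overlapped on a strand, the 336 formed 216 loci, of which 152 held a single circRNA. The locus with most was chr4:31194859-31320090, with 9 circRNAs and 87 reads in all, none of them in the second caller's lists. Within it, starts at 31194859 and 31194862 each joined ends at 31319352 and 31320090. These 4 circRNAs had 2 to 4 reads, each in 1 library, and they were the only ones of the set with another within 5 bases at both ends. The locus chr1:195657722-195866944 held 8 circRNAs and 425 reads. At chr18:85534246-85731039 all 6 circRNAs ended at 85731039, and at chr8:126286753-126390804 all 6 ended at 126390804. On the minus strand this is the 5′ end, so 1 upstream end was joined to 6 downstream ones at either locus. The locus chr7:32922004-32982696 was the most abundant of these, with 533 reads over 4 circRNAs that all ended at 32982696.

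The second caller listed 121 of the 336 (36.0%) at the same chromosome, start and end in at least 1 library, after 1 was added to its starts. The strand was the same in all 361 such listings. None of its candidates was longer than 99870 bases, whereas the main tables reach 199893, so 71 of the long intergenic circRNAs could not match. Of the 265 short enough to match, it listed 121 (45.7%). The share was 48.8% (78 of 160) for spans of 20 to 50 kb and 40.6% (43 of 106) for 50 to 100 kb. Among exonic circRNAs it was 75.2% (242 of 322) and 74.8% (77 of 103) over the same spans. Among shorter intergenic circRNAs the second caller listed 219 of 326 (67.2%).

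Within a library, the second caller listed 29.8, 34.4, 31.7, 27.6, 33.3 and 26.1% of the long intergenic circRNAs from C01 to C06. For the shorter intergenic ones it listed 64.4, 63.0, 68.2, 53.0, 67.9 and 63.97%. For exonic circRNAs of 20000 bases or more these shares were 67.0, 68.7, 71.3, 56.6, 72.4 and 68.5%. The long intergenic class was the lowest in 6 of 6 libraries, with differences of -32.9 percentage points (SD 4.86) from the short intergenic and -36.9 (SD 4.76) from the long exonic class (n = 6, 30.5 ± 3.24 against 63.4 ± 5.52 and 67.4 ± 5.66%; exact two-sided sign-flip permutation test, p = 0.031 and adjusted p = 0.031 each, the smallest possible). Limited to spans of up to 99870 bases, the long intergenic class reached 38.7%, a difference of -24.7 points from the short intergenic and -30.9 from the long exonic class. It stayed the lowest of the 3 classes within the length limit of the second caller.

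**Figure D3:**
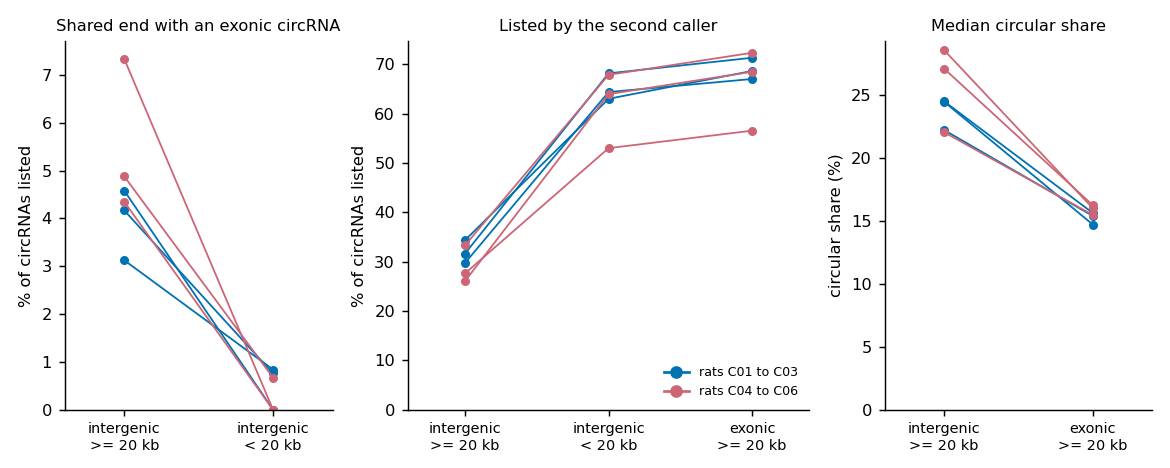
Per library (1 line per rat, coloured by group), the percent of listed circRNAs that share an exonic end, the percent listed by the second caller, and the median circular share in percent (y axes), by class of circRNA (x axes). Long intergenic circRNAs lie above the shorter ones for shared ends (4.74 against 0.378% on average), lowest for the second caller (30.5%) and above the long exonic ones for circular share (24.8 against 15.6%), in every rat.

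Of the 10 circRNAs with the highest mean CPM, the second caller listed 6 and missed 4, of which 2 are longer than its longest candidate. The chromosome 20 circRNA, with the most reads, was in none of the second caller's lists, although its span was within their range. Also missing there were chr2:197722898-197836197 and chr6:125438435-125594377, which are longer than 99870 bases, and chr14:113271542-113314869 and chr1:122605870-122678378, which are not. Of the 39 listed in all 6 libraries, the second caller listed 15 in some library and 12 in all 6, and of the 24 it never listed 7 were too long. Among the 168 listed in 1 library it listed 55.

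The most second-caller reads were at chr6:95500522-95531984, with 109, 98, 98, 47, 80 and 56 from C01 to C06. The main tables gave it 28, 28, 32 and 30 reads in C01, C02, C03 and C06 and did not list it in C04 and C05, where the second caller had 47 and 80 reads. Next came chr7:32922004-32982696 with 409 second-caller reads, chr6:126864143-126894194 with 349, chr4:184195264-184224636 with 331 and chr6:125538240-125594377 with 314. At chr7:32922004-32982696 the callers gave like counts, 69, 67, 55, 68, 61 and 73 against 62, 78, 66, 49, 78 and 76. Where both listed a circRNA of the set in a library, the median ratio of second-caller to main reads was 0.7. Of the second caller's 361 listings, 120 were in libraries where the main tables lacked the circRNA, so an absence from the main tables is not an absence of junction reads. Of the 215 circRNAs the second caller never listed, 144 had neither end in any of its candidates, 66 had 1 end and 5 had each end in some candidate. None had a candidate within 5 bases at both ends.

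The circular share compares back-splice reads with reads that cross the same ends without being back-spliced, called linear reads here. It was computed as 2 times the back-splice reads over that number plus the linear reads, and no circRNA in the main tables has a share under 9.09%. The median share of the listed long intergenic circRNAs was 22.2, 24.5, 24.5, 28.6, 22.0 and 27.1% from C01 to C06, against 15.4, 14.7, 15.6, 16.0, 15.5 and 16.2% for exonic circRNAs of 20000 bases or more. It was higher in 6 of 6 libraries, by 9.25 percentage points (SD 2.32, n = 6; 24.8 ± 2.60 against 15.6 ± 0.534%; exact two-sided sign-flip permutation test, p = 0.031 and adjusted p = 0.031, the smallest possible).

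Among the 39 listed in all 6 libraries, the median share over the rats ran from 11.8 to 100%, with a median of 44.9%. It was 50% or more for 18 of them and 90% or more for 7. These 7 held 6989 reads, 42.3% of those of the set, and all lie on the plus strand. The chromosome 20 circRNA had a median share of 92.8%, with 133, 88, 88, 97, 137 and 94 linear reads. For chr14:113271542-113314869 the median share was 97.3%, with 2, 8, 4, 4, 15 and 9 linear reads, and for the longest circRNA, chr2:251176578-251376470, it was 96.8%, with at most 5 linear reads in any library. The other 4 were chr2:197722898-197836197 (90.9%), chr6:144211592-144275272 (93.7%), chr2:248222990-248253593 (94.6%, 63 reads) and chr10:94083626-94187819 (100%, 58 reads). Of the 7, the second caller listed only chr6:144211592-144275272, with 10, 13, 10, 7, 25 and 6 reads against 183, 150, 123, 107, 141 and 114 in the main tables. Over the 39, the median share was 31.0% for the 15 the second caller listed and 47.8% for the 24 it did not.

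**Figure D4:**
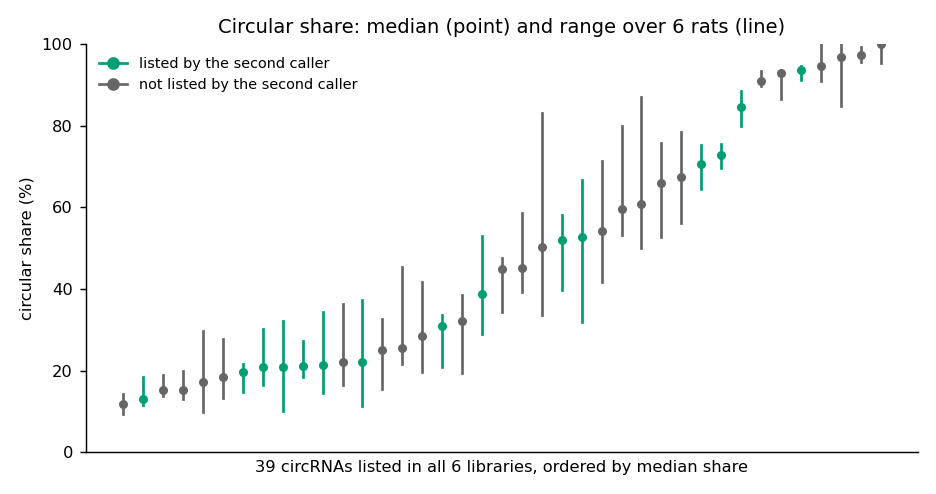
Circular share in percent (y axis) of the 39 long intergenic circRNAs listed in all 6 libraries, ordered by median (x axis). Points are medians and lines the range over 6 rats, coloured by whether the second caller listed the circRNA. Of the 7 points at 90% or more, 6 are of circRNAs the second caller did not list.

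Between the groups, the numbers of long intergenic circRNAs per library overlapped: 131, 128 and 120 for C01 to C03 against 123, 150 and 138 (126 ± 5.69 against 137 ± 13.5, n = 3 each; exact two-sided permutation test, p = 0.3). They held 15.3, 16.5 and 14.6% of the back-splice reads of C01 to C03, against 13.3, 13.9 and 12.1% of those of C04 to C06. The groups did not overlap, and the means were 15.5 ± 0.963 and 13.1 ± 0.937% (n = 3 each), a difference of 2.36 points (exact two-sided permutation test, p = 0.1, the smallest that 3 against 3 can give). Without the chromosome 20 circRNA the shares were 11.7 and 10.3%, a difference of 1.40 points (p = 0.1, same permutation test).

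Back-splice reads were compared circRNA by circRNA with edgeR's quasi-likelihood test over the 772 circRNAs that reached 2 reads in 3 or more libraries, of which 112 are long and intergenic. With Benjamini-Hochberg adjustment at 0.05, 12 of 772 were called (1.55%, with 0.389% higher and 1.17% lower in C01 to C03). Of the 112, edgeR called 1 higher and 0 lower, a share near that of all circRNAs. At an unadjusted p under 0.05 there were 12 of 112 (10.7%) in either direction, against 77 of 772 (9.97%). Over the same 772 circRNAs DESeq2 called 27, of which 3 are long and intergenic (2 higher and 1 lower). With limma-voom 33 were called, of which 4 are long and intergenic (2 and 2). The median log2 difference was 0.12 over the 112 and -0.10 over all 772. Above 0 were 65 of the 112 (58.0%) and 347 of the 772 (44.9%). Of the 112, the 39 listed in all 6 libraries had a median of 0.046. The 73 listed in 3 to 5 libraries, where absences count as 0, had a median of 0.29.

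The circRNA called was chr4:184195264-184224636, on the plus strand with a span of 29373 bases. Its 13975 ± 1426 CPM in C01 to C03 compare with 9027 ± 397 in C04 to C06 (SD, n = 3 each), a log2 difference of 0.63 (SE 0.10, edgeR adjusted p = 0.036). Every rat of C01 to C03 was above every rat of C04 to C06. The second caller gave it 67, 86 and 65 reads against 13, 67 and 33, which overlap at C03 and C05, and on those counts the log2 difference was 0.94 with an edgeR adjusted p of 0.56. The call was lost without C01, C02, C04, C05 or C06 (edgeR adjusted p = 0.059, 0.080, 0.22, 0.27 and 0.19). Without C04, C05 or C06 edgeR called 0 of all 654, 655 and 654 circRNAs tested, so those losses were not particular to this circRNA. Without C01 or C02 it called 10 of 682 and 9 of 687. The difference was 0.59 to 0.94 over all alternatives, with adjusted p from 1.1e-06 to 0.73.

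By unadjusted p, the next highest in C01 to C03 were chr7:32955133-32982696 and chr6:144211592-144275272, and the lowest were chr1:195171678-195273233, chr2:38074255-38110573 and chr2:2758476-2779098, with edgeR adjusted p of 0.18, 0.23, 0.13, 0.22 and 0.22, none past the threshold. Other settings called each of them. With DESeq2 the adjusted p was 0.018 at chr7:32955133-32982696 and 0.0084 at chr1:195171678-195273233, and with limma-voom it was 0.011 and 0.0085 there and 0.020 at chr2:38074255-38110573. With no filter edgeR called chr1:195171678-195273233 (adjusted p = 0.037), and over circRNAs listed in all 6 libraries it called chr6:144211592-144275272 (adjusted p = 0.010). With limma on TPM, chr7:32955133-32982696 and chr2:2758476-2779098 were called (adjusted p = 0.0042 and 0.0041 at the smaller pseudocount). At chr6:144211592-144275272 the log2 difference was 0.46 (SE 0.15) on the main counts and -0.20 (SE 0.54) on the second caller's. Each of the other 4 was listed in all rats of its group and missing from the opposite one, so no fold is given. Each reached 2 reads in 3 libraries only through the group that lists it, and its absences were counted as 0. The p-values of these 4, under any setting, are therefore no support for a difference between the groups. Reads at chr7:32955133-32982696 were 9, 10 and 8 in C01 to C03. Its shares there were 11.0, 12.3 and 10.4%, close to the 9.09% floor of the tables, and the second caller listed it in all 6 rats with 4, 11, 5, 2, 9 and 3 reads. Likewise chr2:2758476-2779098 had 5, 9 and 4 reads in C04 to C06 at shares of 10.1, 15.9 and 9.64%, and 4, 2, 4, 5, 5 and 3 second-caller reads over all rats. These pairs of values show junction reads in the rats for which the main tables have no entry.

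The second caller never listed chr1:195171678-195273233 or chr2:38074255-38110573. The first had 18, 14 and 10 reads in C04 to C06 at shares of 18.5, 14.6 and 13.0%. The second had 10, 7 and 7 reads at 14.8, 11.1 and 10.9%. In all, 1 of the 336 was listed in each rat of C01 to C03 but in no other rat, and 6 showed the reverse. The remaining 3 of these 6 were chr15:16089766-16170268 (2, 4 and 3 reads), chr1:161320030-161466344 (3, 4 and 3 reads) and chr1:9682195-9783236 (4, 6 and 2 reads). The main tables list more circRNAs of all classes in C04 to C06 (948, 986 and 946) than in C01 to C03 (874, 795 and 825). The same count over all circRNAs was not made, so 6 against 1 cannot be called a trait of this set. The longest circRNA, chr2:251176578-251376470, had 45, 35 and 41 reads against 23, 14 and 28 without overlap, a log2 difference of 0.998 (SE 0.33, edgeR adjusted p = 0.24) that did not pass.

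Linear reads at the ends were tested in the same way. They are known only for listed circRNAs, so this test was limited to the 273 listed in all 6 libraries, of which 39 are long and intergenic. edgeR called 87 of 273 (31.9%, with 18.7% higher and 13.2% lower in C01 to C03) and 13 of the 39, 8 higher and 5 lower, a share near that of all circRNAs. Over the same 273 circRNAs edgeR called the back-splice reads of 7, of which 4 are long and intergenic. Whether the 2 kinds of read differ in how often they were called was not tested. The median log2 difference was 0.12 over the 39 and -0.00 over the 273. Without C02, edgeR called 8 of the 42 long intergenic circRNAs then listed in all libraries, 4 in each direction, and 84 of 308 over all circRNAs. These p-values rest on a spread pooled over circRNAs.

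The most raised were 2 circRNAs on the minus strand of chromosome 1. Linear reads at chr1:54418421-54455843 were 63, 67 and 56 against 9, 18 and 19, a log2 difference of 2.01 (SE 0.28, edgeR adjusted p = 2.5e-10). At chr1:281236389-281256438 they were 266, 194 and 264 against 92, 132 and 97, a log2 difference of 1.18 (SE 0.12, edgeR adjusted p = 1.9e-16). Neither pair of groups overlapped, whereas their back-splice reads did: 28, 17 and 15 against 22, 11 and 11 at the former, and 19, 11 and 19 against 19, 29 and 23 at the latter. The other 6 called higher had log2 differences of 0.69 at chr17:75295083-75352500, 0.56 at chr4:184195264-184224636, 0.52 at chr8:45691134-45743143, 0.42 at chr6:126864143-126894194, 0.41 at chr9:73766839-73799430 and 0.28 at chr15:25537445-25581597.

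Among the 5 called lower, chr9:7957095-8015956 fell most, with 65, 89 and 71 linear reads against 147, 163 and 165, a log2 difference of -1.07 (SE 0.15, edgeR adjusted p = 1.7e-09). At chr6:125538240-125594377 they were 705, 564 and 583 against 863, 1041 and 921, the most linear reads of the circRNAs named here, a log2 difference of -0.61 (SE 0.06, edgeR adjusted p = 2.0e-16). The circRNA that shares its right end, chr6:125438435-125594377, fell by 0.52 on the log2 scale. Values of -0.83 at chr14:1388886-1414488 and -0.57 at chr1:195833189-195866944 complete the 5. The call at chr14:1388886-1414488 was lost under 5 of 10 alternatives, that at chr17:75295083-75352500 under 4, those at chr15:25537445-25581597, chr6:126864143-126894194 and chr8:45691134-45743143 under 2 each and that at chr9:73766839-73799430 under 1. The other 7 were called under all 10. At the 13 circRNAs the back-splice reads had log2 differences from -0.61 to 0.81, of the same sign as the linear reads in 10, and chr4:184195264-184224636 was the one called for both.

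**Figure D5:**
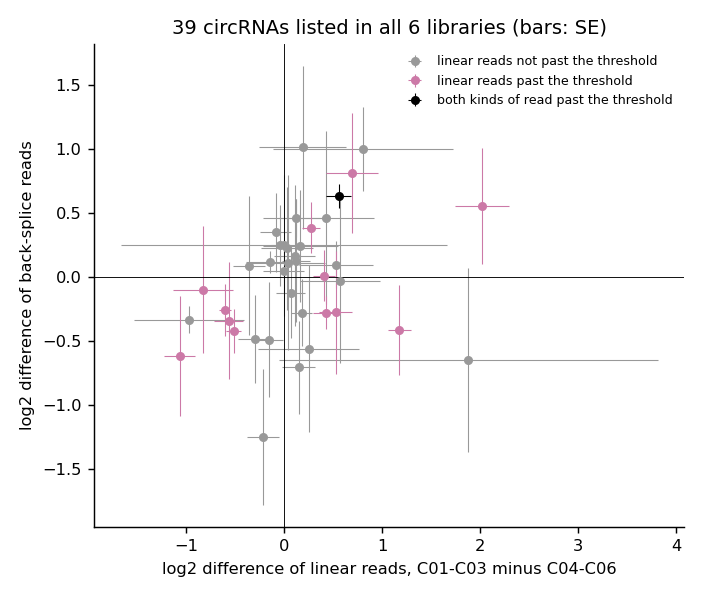
For the 39 long intergenic circRNAs listed in all 6 libraries, the log2 difference (C01 to C03 minus C04 to C06) of linear reads (x axis) and of back-splice reads (y axis), with bars for the SE and colours for the circRNAs called. Linear differences that were called reach from -1.07 to 2.01, and back-splice differences at the same circRNAs lie between -0.61 and 0.81. These circRNAs were picked by their linear reads, so the ranges cannot show which kind of read varies more. Over all 39, back-splice differences ran from -1.25 to 1.01.

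The circular share was tested with limma on the log2 ratio of back-splice to linear reads over the same 273 circRNAs. It called 6 of 273 (2.2%, with 0.733% higher and 1.47% lower in C01 to C03) and 1 of the 39 long intergenic ones. At an unadjusted p under 0.05 there were 8 of 39 (20.5%) and 56 of 273 (20.5%). The circRNA called was chr1:281236389-281256438, which is also the one nearest to the span limit. Its shares were 12.5, 10.2 and 12.6% against 29.2, 30.5 and 32.2% (11.8 ± 1.36 against 30.6 ± 1.47%, n = 3 each), a log2 difference of -1.72 (SE 0.23, limma adjusted p = 0.0062), and it was called under all 9 alternatives (adjusted p from 0.0047 to 0.040). The back-splice reads differed by -0.41 (SE 0.35) and the linear reads by 1.18 on the log2 scale. At chr1:54418421-54455843 the shares were 47.1, 33.7 and 34.9% against 83.0, 55.0 and 53.7%, without overlap, a log2 difference of -1.59 (SE 0.53, limma adjusted p = 0.16) that did not pass.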

How the data were processed

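Per the labels, total RNA was isolated with TRIzol from 1 pineal gland sample per rat. Per the file headers, the authors' main tables, in the column format of CIRI, hold back-splice read counts, linear read counts and the circular fraction, for circRNAs with at least 2 reads. The authors' second lists, in the column format of find_circ, hold junction read counts of at least 2. The deposited TPM values of 1413 circRNAs served only as an alternative (log2 of TPM plus 0.760 or 1). The versions of both callers were not given in the sources used here. Per the submitters' processing notes, DESeq and mm9, a mouse build, were used, but the gene IDs are rat Ensembl IDs, so the build is uncertain, and no sequence is printed.

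Tables were joined by circRNA position. A circRNA absent from a table was counted as 0 and is described as not listed. Counts were tested with edgeR 4.0.16 (TMM, quasi-likelihood) in R 4.3.3, and ratios of back-splice to linear reads, each plus 0.5, with limma 3.58.1 (trend), with Benjamini-Hochberg adjustment over all circRNAs tested and a threshold of 0.05. DESeq2 1.42.0 was an alternative. Values per library were compared by exact permutation. Only the edgeR fit of back-splice reads was run on simulated counts, and its outcome is not used here. The fits of linear reads and of shares were not run on simulated counts. The labels describe separate animals, and all libraries share 1 flow cell lane. The class of circRNA, the lists and the tests were chosen with earlier results of these data known. By the naming rule, the text gives the 10 circRNAs of highest mean CPM, those called in a test, the 3 of smallest p per direction, the 3 longest, the 3 on each side of the span limit, the exonic ends most shared, and the 5 with most second-caller reads and the 5 with most reads among those not listed there. Others were named after their values were seen: those of share 90% or more, of the loci, and listed in 1 group only.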

Additional observations from a re-analysis of the deposited data

How the results depend on the processing

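With a median of 7 reads per circRNA over all libraries, most of the set is measured with few reads. No paired analysis of the groups was possible, because the labels describe separate animals and pair none of them across the groups. The single call on back-splice reads (1 of 112, with 12 of 772 over all circRNAs) became 5 of 336 with no filter (41 of 2228 over all). Over circRNAs listed in all 6 libraries it became 4 of 39 (7 of 273 over all). There were 3 of 112 with DESeq2 (27 of 772), 4 of 112 with limma-voom (33 of 772) and 2 of 31 with TPM at either pseudocount (31 of 494). On the second caller's counts edgeR called 0 of 58 (4 at an unadjusted p under 0.05) and 2 of 2208 over all. When a rat was left out 0 to 1 were called (7 to 16 at an unadjusted p under 0.05), with 0 to 14 over all. The number called stayed 1 under 5 other settings, among them near-duplicate reads counted once, an alternative chosen after the data were seen. Called linear reads numbered 8 to 13 with a rat left out (72 to 92 over all circRNAs), and 8 of 42 without C02 (84 of 308 over all). Scaling linear reads by the back-splice factors moved the median of all 273 by 0.12 (log2) and left 13 called, with 82 called over all 273. Leaving out a rat gave 3.77 to 4.78 points for the shared exonic end, -34.4 to -31.9 and -38.5 to -35.8 for the second caller and 8.58 to 9.78 for the circular share, all at p = 0.063 in the exact test, the smallest 5 libraries allow. Partners of the same library gave 2.51 points and partners listed in all 6 gave 0.251. Counting only circRNAs that the second caller listed in the same library turned the difference in number per library to 0.333 (40.3 against 40.0, exact permutation p = 1.0). The second caller's counts turned chr6:144211592-144275272 to -0.20. The cause of each of these changes was not tested.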

Other observations

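Some ends of long intergenic circRNAs lay a short distance from an end of another circRNA, of any class, on the same strand. One circRNA of such a pair started shortly before the other ended. With a limit of 300 bases there were 12 such intervals, of 75 to 252 bases (median 112.5), at 24 of the 336 circRNAs (7.14%). At chr1:195805819-195805915 and chr1:195833189-195833285 the interval was 97 bases each. The limit of 300 bases bounded these lengths beforehand, so they cannot tell whether an interval is an exon. No annotation of the build was at hand to look for one.

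At chromosome 1, chr1:122605870-122678378 and chr1:122613645-122680102 overlap on the minus strand and share no end. They were named here after their values were seen. The former had 37, 47, 49 and 66 reads in C01, C02, C03 and C05, and the latter 31, 28, 47, 47 and 30 in C01, C02, C03, C04 and C06. Each was thus absent from the main tables of rats where the other was listed. Where listed, their shares were 46.3 to 61.0% and 43.8 to 63.1%, far from the floor of 9.09%, and the second caller listed neither in any library. This was not tested.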
